A study of Arabidopsis thaliana with 4 samples.

Results

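Callus is a proliferating mass of plant cells that forms on cut tissue held on auxin and cytokinin. In Arabidopsis, callus of this kind arises from pericycle or pericycle-like cells through a programme shared with lateral root initiation, and it is known to express regulators of the root stem cell niche. The data described here are the 2 wild type libraries of a set of 4, and the question put to them was which genes this callus expressed, which members led each gene family and which members were silent. Both libraries came from Arabidopsis thaliana of genotype Col-0 with no transgene named in the labels. Seeds were stratified for 3 days at low temperature, and seedlings were kept for 9 days in darkness at 22 °C. Hypocotyl pieces of about 1 cm were then placed in continuous light, for 5 to 6 days by the culture protocol, on medium with 2% sucrose, 11 µM of the synthetic auxin 2,4-D and 0.2 µM of the cytokinin kinetin, a stage labelled as 6 days. The set's other 2 libraries, from callus of the wox5-1 wox7-1 double mutant, entered no value given here.

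About 100 calli were pooled for RNA, so each level is an average over many cells of unknown types. Whether separate cultures gave the 2 libraries is not stated, and the spread between them may be technical. With 1 group of 2 libraries no test of a condition was possible and no p-value is given. Every pair of values below is replicate 1 first and replicate 2 second. In bulk RNA, a low level from few cells and a low level per cell cannot be told apart.

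The libraries held 30041268 and 35975440 gene-assigned reads over 32833 annotated genes. A gene was called detected with more than 3 reads in each library and silent with at most 3 in each, because 3 reads is the limit that a count of 0 allows. That limit was 0.0999 and 0.0834 CPM, which are reads scaled to a common library total, and it covers counting error only. Levels of different genes are compared in TPM, a per-length level that divides reads by the exon length of the gene and scales each library to the same sum. Plastid genes took 0.00181% and 0.00145% of the reads, and mitochondrial genes took 0.00426% and 0.006%. Organelle transcripts were therefore not described.

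Of the 32833 genes, 19002 (57.9%) were detected and 12722 (38.7%) were silent. The silent genes included 10498 (32.0% of all) with no read in either library. Another 1109 genes passed 3 reads in 1 library only. Among the 27444 protein-coding genes, 18495 (67.4%) were detected and 8046 (29.3%) were silent, and protein-coding genes held 99.3% of all TPM. The mean level was at least 1 TPM for 17390 genes, at least 10 TPM for 12798 genes, at least 100 TPM for 1966 genes and at least 1000 TPM for 104 genes. The median detected gene stood at 20.5 TPM. The 30 most abundant genes held 7.52% and 7.22% of TPM, the 100 most abundant held 16.4% and 16.2%, and 1212 genes were needed to reach 50%.

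**Figure D1:**
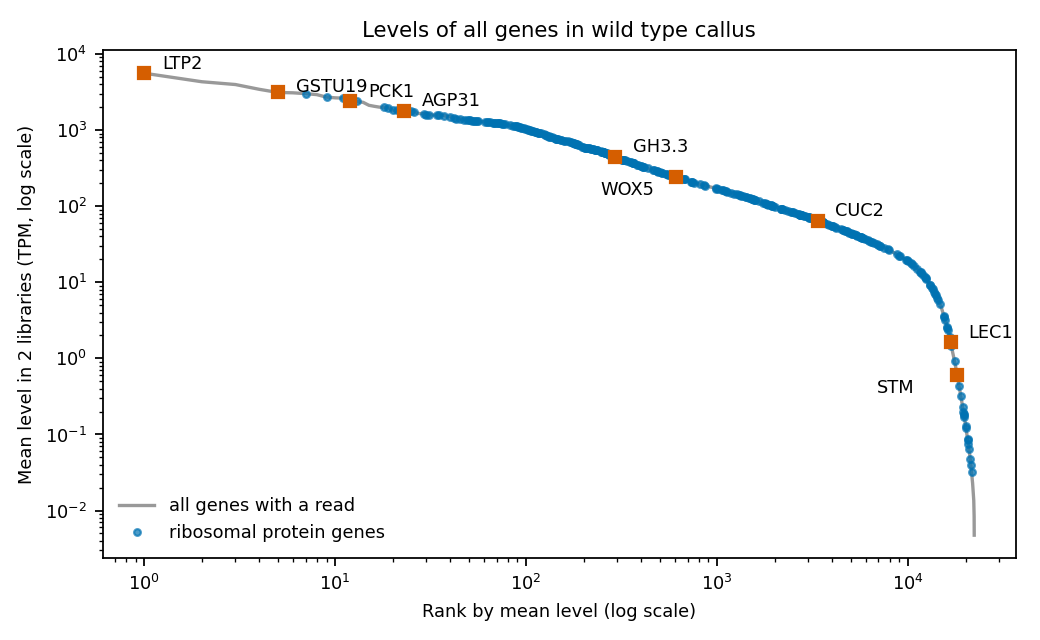
Mean TPM of every gene with a read (grey line, log axis) against its rank (log axis), with the genes of ribosomal protein products as blue points and 9 named genes as orange squares. LTP2 holds the first rank, ribosomal protein genes crowd the ranks below 100, WOX5 stands at rank 609, and STM and LEC1 lie at the steep right end near 1 TPM.

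The most abundant transcripts of the callus were those of lipid transfer proteins, an RNA-binding protein, a cytosolic chaperone, a glutathione S-transferase and the translation machinery. LTP2, which encodes a secreted lipid transfer protein of the kind made in epidermal cells, had the highest level, at 6455 and 4720 TPM. It lies at chr2:16128176-16129399 on the forward strand of TAIR10.1, directly beside LP1 (also known as LTP1) at chr2:16130290-16131240. LP1 reached 3106 and 3074 TPM, LTP3 reached 2194 and 1914 TPM, and AT5G01870, whose annotated product is of the same superfamily, reached 3648 and 3220 TPM. These were the only 4 of 139 genes with a lipid transfer product among the 100 most abundant genes. The class was otherwise mostly silent. Of the 139 genes, 91 were silent and 41 were detected, and the whole class held 1.64% and 1.45% of TPM. Of the 30 most abundant genes, LTP2 was also the gene whose libraries lay farthest apart in TPM.

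GRP7, a glycine-rich RNA-binding protein of the circadian and cold response, followed at 4367 and 4271 TPM. HSC70-1, a constitutive cytosolic chaperone, stood at 3999 and 3939 TPM, and these libraries lay close together. GSTU19, a tau-class glutathione S-transferase, reached 3514 and 2732 TPM. Glutathione S-transferases conjugate glutathione to xenobiotics and reactive compounds. Among the 56 genes annotated with such a product, 43 were detected, and GSTU19 stood well above the next ones, GSTU24 at 697 and 725 TPM and GSTF8 at 671 and 564 TPM. TCTP, a growth-related protein, had 3135 and 2713 TPM. PCK1, the phosphoenolpyruvate carboxykinase that starts gluconeogenesis from organic acids, had 2469 and 2338 TPM. AGP31, an arabinogalactan protein of the cell wall, had 2023 and 1567 TPM. The other genes of the 30 highest without a ribosomal or translation product in the annotation were GRP3S, which encodes a glycine-rich protein (2041 and 2195 TPM), NDPK1, a nucleoside diphosphate kinase (1734 and 1793 TPM), and the ubiquitin genes UBQ5 (1951 and 2057 TPM) and UBQ6 (1643 and 1652 TPM). UBQ5 and UBQ6 are known to encode ubiquitin fused to a ribosomal protein, and the product words used here did not count them as ribosomal. For UBQ6, 23.6% of the exon bases overlap another annotated gene, and reads of both could not be told apart.

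Translation genes filled most other places. Genes whose annotated product is a ribosomal protein made up 13 of the 30 and 56 of the 100 most abundant genes. This count went by product words. UBQ5, UBQ6 and RPS10B, among others, were left out, so the true number may differ. The 375 genes with such a product held 15.5% and 16.3% of TPM, with a median of 151 TPM beside 20.5 TPM over all detected genes, and 341 were detected while 32 were silent. The highest was emb2386, a ribosomal protein L19e gene, at 2994 and 3031 TPM. AT5G20290, of the S8e family, stood at 2585 and 2840 TPM, and the L14 gene AT4G27090 at 2618 and 2642 TPM. RP1 reached 2371 and 2388 TPM, and EMB2296, of the L2 family, reached 1752 and 1771 TPM. Outside the ribosome itself, the elongation factor gene AT5G60390 stood at 2632 and 2676 TPM, with 10.7% of its 31-base words found again elsewhere in the genome. FBR12, which encodes the translation factor eIF-5A, stood at 2280 and 2350 TPM. The remaining 8 ribosomal protein genes of the 30 (AT2G34480, AT3G60245, AT2G41840, AT3G62870, AT1G67430, AT3G09200, AT5G02960 and AT4G15000) lay between 1584 and 2036 TPM. AT1G09690, annotated as a translation protein of the SH3-like family and so not counted by the product words, stood at 1667 and 1642 TPM.

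The sequence upstream of these genes was examined because it was not used to choose them. Site II elements (TGGGCC or TGGGCT), which TCP-type factors can bind, and telo boxes (AACCCTA) are known from promoters of plant ribosomal protein genes. In TAIR10.1, the 250 bases before the annotated start were searched on both strands for 27443 protein-coding genes. No motif searched is contained in another, although site II matches on opposite strands can overlap, as in TGGGCCCA. Site II was found in 19.2% of all windows and in 56.0% of the 375 ribosomal protein windows. It was found in 110 of the 200 most abundant genes (55%) and in 9.95% of the 6343 protein-coding genes with no read. The telo box was found in 6.56% of all windows, 20.3% of ribosomal protein windows, 24.5% of the 200 most abundant and 9.35% of genes with no read. Both motifs together were found in 1.79% of all windows, 14.1% of ribosomal protein windows and 17.5% of the 200 most abundant. Among the 99 of these 200 genes that have no annotated ribosomal protein product, 35.4% held site II and 16.2% held the telo box. This last split was added after the values were seen. It went by product words, so genes such as UBQ5, UBQ6 and RPS10B stayed among the 99. The share outside all ribosomal protein genes is therefore not given by it.

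Over all 18494 detected protein-coding genes with a window, site II was found in 23.3% and the telo box in 5.48%, so the telo box was less frequent there than among genes with no read. The TATA box hexamer TATAAA was found in 47.3% of all windows, 50.5% of the 200 most abundant and 50.9% of genes with no read. Mean GC content was 31.5% over all windows and 33.4% over ribosomal protein windows. These shares are descriptions with no test, and a match is not a shown binding site. The upstream windows of 3 ribosomal protein genes that hold both motifs are printed 5′ to 3′ on the strand of the gene, from RefSeq TAIR10.1, with telo boxes and site II elements in capitals on whichever strand they match. They are EMB2296 at chr2:7836817-7837066 (forward strand), RPS15 at chr1:1143131-1143380 (reverse strand) and AT5G56710, of the L31e family, at chr5:22944994-22945243 (reverse strand). They were chosen for display after the motifs were counted.
EMB2296: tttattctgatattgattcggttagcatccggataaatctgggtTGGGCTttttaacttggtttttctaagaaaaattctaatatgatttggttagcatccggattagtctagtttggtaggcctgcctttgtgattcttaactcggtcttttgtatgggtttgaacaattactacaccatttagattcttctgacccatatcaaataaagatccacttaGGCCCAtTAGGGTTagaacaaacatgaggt
RPS15: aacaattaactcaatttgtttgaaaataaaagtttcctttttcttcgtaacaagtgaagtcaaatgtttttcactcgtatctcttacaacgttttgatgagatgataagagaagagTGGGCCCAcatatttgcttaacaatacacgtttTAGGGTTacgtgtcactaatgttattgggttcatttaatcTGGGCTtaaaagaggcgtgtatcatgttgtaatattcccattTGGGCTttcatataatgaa
AT5G56710: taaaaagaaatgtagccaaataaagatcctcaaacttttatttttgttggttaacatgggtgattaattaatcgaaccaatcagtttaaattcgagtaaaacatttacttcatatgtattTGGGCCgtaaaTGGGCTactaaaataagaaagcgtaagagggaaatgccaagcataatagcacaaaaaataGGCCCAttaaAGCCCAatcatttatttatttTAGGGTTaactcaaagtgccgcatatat
In EMB2296 a site II element and a telo box sit 1 base apart close to the start, and a further site II element lies near the far end of the window. RPS15 holds 4 site II matches, of which 2 overlap in a palindrome, and 1 telo box. AT5G56710 holds 4 site II matches and 1 telo box near the start.

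**Figure D2:**
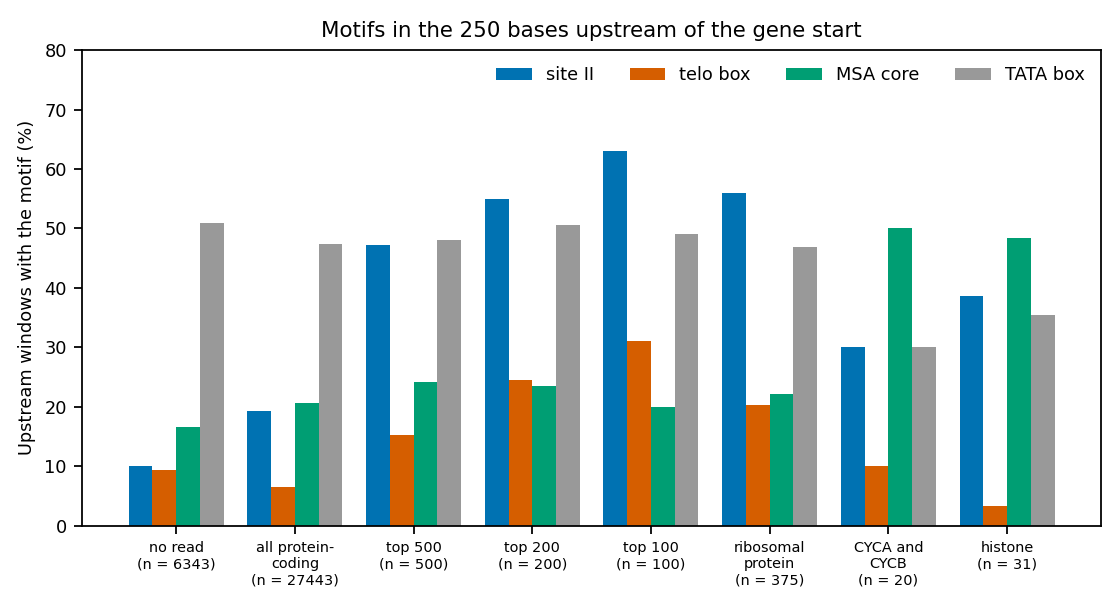
Share of upstream windows (%, bars from 0) that hold each of 4 motifs on either strand, in 8 sets of genes whose sizes stand under the bars. Site II rises from 9.95% of genes with no read to 63.0% of the 100 most abundant, the telo box is in 31 of those 100 windows, and the MSA core is most frequent in the A-type and B-type cyclins (10 of 20) and the histones (48.4%).

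The tissue label was checked against marker genes of callus and of other cell types. All 14 markers of callus founder cells and the root stem cell niche were detected, with a median of 144 TPM and a summed level of 2050 and 1930 TPM. The highest was PLT3 (listed as AIL6) and the lowest was LBD29, at 0.241 and 2.19 TPM. LBD29 had 4 and 44 reads, so in replicate 1 it barely passed the limit of 3 reads. All 6 markers of epidermis and cutin were detected as well, with a median of 262 TPM. PDF1, which is expressed in protodermal cells, led them at 805 and 938 TPM, and the lowest, ATML1, was above 10 TPM. The 6 phloem markers were detected at low level, led by OPS at 21.5 and 20.5 TPM.

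Markers of xylem, endodermis and suberin, root hair, guard cell, trichome, seed and pollen were low or silent, unlike those of epidermis and cutin. Of 10 xylem markers, 6 were detected, the highest being CESA7 at 3.47 and 3.01 TPM, and the vessel regulators VND6 and VND7 were silent, as was IRX9. Of 10 endodermis and suberin markers, 6 were detected, and CASP1 and CASP5, which scaffold the Casparian strip, were silent, while the suberin enzyme gene ASFT reached 2.63 and 6.57 TPM. RHD6, the root hair initiation factor, was at 1.81 and 3.64 TPM, and the other 5 root hair markers were silent. Among 6 guard cell markers, 4 were silent (MUTE, SPCH, FAMA and SLAC1), and the highest, MYB60, was at 0.178 and 0.442 TPM. Among 4 trichome markers, GL3 reached 10.4 and 14.1 TPM and TRY, GL1 and MYB106 were silent. For MYB106 and SLAC1, 76.0% and 43.0% of the exon bases overlap another annotated gene, and a loss of reads there was not tested. Of 9 seed markers, LEC1, an embryonic regulator, was the only one detected, at 2.30 and 0.952 TPM. Of 4 pollen markers, VGD1 and MGH3 were silent and the others stayed under 1 TPM, led by AGP11.

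Markers of photosynthetic mesophyll summed to 40.5 and 27.2 TPM over 7 genes. PSBO1, an oxygen-evolving subunit of photosystem II, was highest at 20.6 and 13.5 TPM. RBCS1A, the small subunit of Rubisco, stood at 1.66 and 0.727 TPM although the explants had been in continuous light. LHCB1.1 and LHCB2.1 had no read, but more than 30% of their 31-base words occur again in the genome, so reads may have been left out by the authors' counting. The 68 genes with chlorophyll-binding or photosystem products held 0.149% and 0.135% of TPM, and ELIP1, an early light-induced protein, led them at 622 and 664 TPM.

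Of the 7 shoot meristem markers, KNAT1, a KNOX homeobox gene, reached 114 and 99.7 TPM. CUC2, a boundary gene, reached 73.3 and 56.3 TPM. WUS, the organiser gene of the shoot meristem, had no read, and CLV3 and ESR1 were silent. STM stood at 0.687 and 0.512 TPM. The root cap markers moved in different directions between the libraries. FEZ was at 18.3 and 13.5 TPM and SMB at 6.58 and 3.95 TPM, whereas BRN1 was at 0.347 and 8.84 TPM, and BFN1, a nuclease of dying cells, was at 1.70 and 10.5 TPM. BRN2 (listed as NAC070) had no read.

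Families were then ordered by TPM. Across 60 families with 643 members, 453 members were detected and 167 (26.0%) were silent, beside 29.3% of all protein-coding genes. The areas differed in how much of the family was silent. In the histone families 3.23% of 31 members were silent, and in the cell cycle families 7.59% of 79. In the root meristem families 36.1% of 133 members were silent, and in the wall families 34.9% of 166. In 22 of the 60 families the leading member held at least 50% of the family's TPM, which small families reach more easily. Among the 51 families with at least 5 members, 15 had such a leader. In 50 of 60 families the leader's 2 library values did not overlap those of the next member. Members that overlap are named as such below. Of the 643 members, 25 have at least 20% of their 31-base words repeated in the genome and 47 have at least 20% of their exon bases inside another annotated gene.

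Among root meristem regulators, WOX5 led the WOX homeobox family with 66.4% of its TPM. WOX5, a stem cell niche factor best known from the quiescent centre, lies at chr3:3527280-3528440 and stood at 244 and 243 TPM. WOX7, its closest relative, lies at chr5:1734427-1734855 and stood at 61.2 and 53.5 TPM. It could not be ordered against WOX13, at 57.8 and 54.9 TPM. WOX11, which acts in founder cells of roots that form on cut tissue, was at 6.12 and 5.13 TPM. WUS, WOX1, WOX2, WOX8, WOX10, PRS (WOX3), PFS2 (WOX6) and HB-3 (WOX9) were silent, so 3 members held 97.4% of the family.

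The PLETHORA and AINTEGUMENTA-like genes encode AP2-type factors, some of which maintain the root meristem, and all 7 members were detected. AIL6 (PLT3) led at 530.4 and 525 TPM. PLT1 at 212 and 184 TPM, AIL7 at 190.0 and 177 TPM and BBM at 191 and 173 TPM followed, and each overlapped the next. PLT2 was lower, at 56.1 and 56.6 TPM. AIL5 stood at 15.1 and 18.1 TPM, and ANT, known from shoot organs, at 2.77 and 2.45 TPM.

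In the GRAS family set, SCR at 199 and 179 TPM and SHR at 149 and 148 TPM were the highest of 12 detected members. These factors pattern the ground tissue and the niche. Of the INDETERMINATE DOMAIN zinc fingers that act with them, JKD led at 81.1 and 77.9 TPM, followed by IDD1 at 69.2 and 65.3 TPM and IDD2 at 36.1 and 32.2 TPM. MGP was near the floor, at 0.152 and 0.227 TPM, and IDD4, IDD12 and IDD16 were silent.

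The LBD family holds factors that act downstream of auxin in lateral root and callus initiation. LBD16, at 171 and 141 TPM, and LBD18, at 143 and 135 TPM, led it and overlapped. LBD37 followed at 107.5 and 86.07 TPM, and LBD19 at 87.3 and 68.9 TPM. With coding length in place of exon length, or with no length, LBD37 led the family. Of the 40 members, 16 were silent. LBD29, of the same callus-initiating group, was far below its relatives, and LBD17 (listed as ASL15) held 5.96 and 5.84 CPM, beside 120.1 and 99.8 CPM for LBD16.

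Of the peptides that signal in meristems, RGF8 led the root meristem growth factors at 293 and 272 TPM, ahead of RGF5 at 120.2 and 144 TPM. Together they held 95.0% of that family, and RGF6, RGF9 and AT3G02242 were silent. CLE44, a precursor of the TDIF peptide that keeps vascular stem cells dividing, held 65.7% of the CLE family, at 113 and 90.3 TPM, although 33.5% of its exon bases overlap another gene. CLE42 came next at 11.2 and 8.13 TPM. Among 31 CLE genes 17 were silent, including CLV3 and CLE40.

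**Figure D3:**
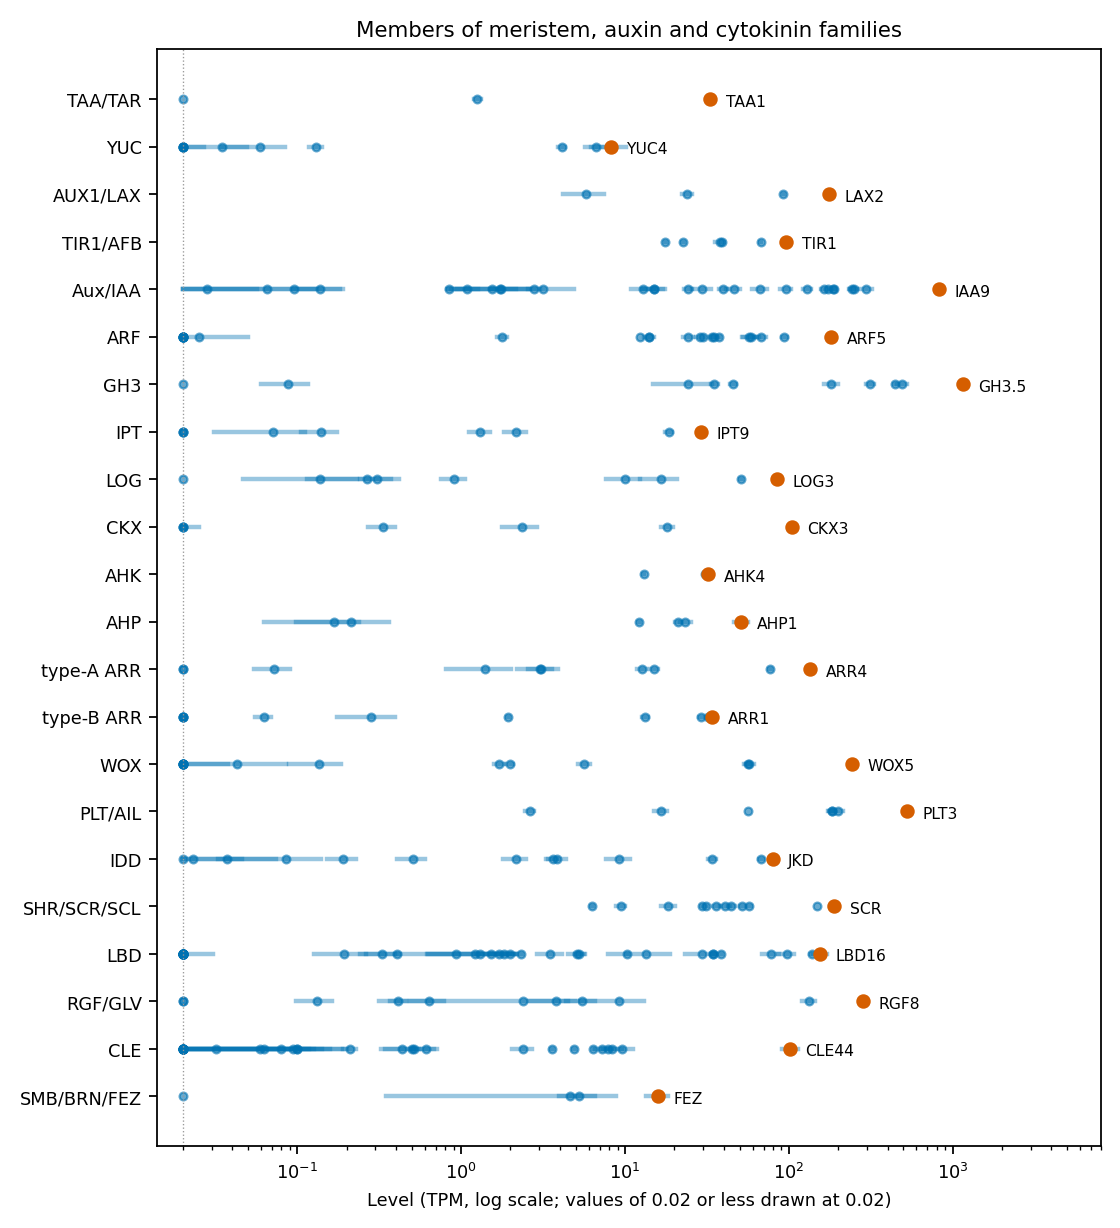
TPM (log axis) of the members of auxin, cytokinin and root meristem families, without the auxin efflux carriers, with a point at the mean of the 2 libraries, a bar from the lower to the higher library and the leading member in orange with its name. Values of 0.02 TPM or less are drawn at 0.02; the leaders reach from 8 TPM for YUC4 to over 1000 TPM for GH3.5.

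Auxin is made from tryptophan in steps run by TAA and YUC enzymes. TAA1 held 96.3% of its family, at 35.0 and 31.3 TPM, TAR2 was at 1.317 and 1.196 TPM and TAR1 was silent. YUC enzymes were low. YUC4 at 10.09 and 6.23 TPM and YUC8 at 5.67 and 7.66 TPM overlapped, YUC3 was at 4.29 and 3.91 TPM, and YUC1, YUC2, YUC5, YUC6, YUC7, YUC10 and YUC11 were silent. The highest YUC level was thus below the median of detected genes.

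Carriers of auxin were far higher. Of the efflux carriers, PIN7 (180.1 and 189 TPM), PIN3 (127 and 122 TPM), PIN4 (90.6 and 95.4 TPM) and EIR1 (PIN2, 26.4 and 28.9 TPM) did not overlap in this order. PIN5 and PIN8 were silent. Among influx carriers, LAX2 at 175 and 177 TPM stood above AUX1 at 92.9 and 91.8 TPM, and all 4 were detected. Of the auxin receptors, TIR1 led at 101 and 91.8 TPM, AFB5 followed at 67.8 and 66.3 TPM, and all 6 were detected.

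In the response machinery, IAA9 was the highest repressor, at 847 and 809 TPM, and held 29.4% of the TPM of 29 Aux/IAA genes. IAA19 at 273 and 321 TPM stood above IAA30 at 261.9 and 234.1 TPM, and IAA6 and IAA31 were silent. MP (ARF5), the activating factor of embryonic root formation, led the 23 ARF genes at 192 and 170.4 TPM, with ARF2, a repressor, at 97.3 and 90.2 TPM. ARF12 to ARF15 and ARF20 to ARF23 were silent. For all of these but ARF13, 20% or more of the 31-base words occur again in the genome, so a loss of shared reads was not tested.

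The GH3 enzymes conjugate auxin to amino acids. WES1 (GH3.5) reached 1204 and 1095 TPM and held 42.9% of the family. DFL1 (GH3.6) followed at 456 and 522 TPM, GH3.3 at 451.4 and 439.5 TPM, and BRU6 (GH3.2) at 330.4 and 295 TPM. GH3.4 was silent. PBS3 (AtGH3.12), which conjugates a salicylate precursor, was at 34.0 and 14.8 TPM, higher in replicate 1.

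Taken over all families, cytokinin genes were lower than auxin genes. Summed over whole synthesis families they were not, although enzymes acting on tRNA held most of the IPT sum and ATP/ADP-dependent ones were low. The 55 members of 7 cytokinin families summed to 880 TPM with a median of 1.93 TPM, beside 7612 TPM and a median of 23.3 TPM over 94 auxin family members. Of the auxin sum, Aux/IAA genes held 2820 TPM and GH3 genes 2680 TPM. In synthesis, TAA/TAR summed to 34.4 TPM and YUC to 19.2 TPM, beside 51.3 TPM for IPT and 163 TPM for LOG. Of the cytokinin synthesis enzymes, IPT9 at 29.9 and 28.4 TPM and IPT2 at 19.5 and 17.6 TPM held 92.8% of the IPT family. Both act on tRNA. Of the ATP/ADP-dependent enzymes, IPT5 was highest, at 1.82 and 2.49 TPM, and IPT4, IPT6, IPT7 and IPT8 were silent. LOG3, which releases active cytokinin, led its family at 83.6 and 84.5 TPM, ahead of LOG8 at 50.5 and 51.6 TPM and LOG4 at 12.4 and 20.7 TPM, and LOG9 was silent. With coding length, LOG8 led.

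The degrading enzyme CKX3 held 83.3% of the CKX family, at 99.8 and 108 TPM, followed by CKX5 at 19.7 and 16.5 TPM, and CKX2, CKX4 and CKX6 were silent. The receptors WOL (AHK4) at 30.8 and 33.2 TPM and HK3 at 30.3 and 31.1 TPM overlapped, and HK2 was at 13.1 and 12.8 TPM. Of the phosphotransfer proteins, AHP1 led at 56.0 and 46.4 TPM, ahead of AHP3 and AHP2, which overlapped. Of the type-A response regulators, which damp the signal, ARR4 at 133 and 136 TPM and ARR9 at 77.4 and 76.0 TPM held 85.7% of the family. ARR7 was at 0.807 and 2.01 TPM, and ARR15, RR16 and RR17 were silent. Of the type-B regulators, which activate transcription, RR1 at 33.15 and 34.6 TPM, RR12 at 32.95 and 30.99 TPM and RR10 at 29.7 and 28.2 TPM were nearly level, and RR13, RR18, RR19, RR20 and RR21 were silent.

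In gibberellin synthesis the GA20OX genes were low, GA20OX3 at 1.78 and 3.05 TPM overlapping GA20OX1, while GA3OX2 held 96.7% of its family at 58.2 and 53.0 TPM. GA20OX4, GA20OX5, GA3OX3, GA3OX4, GA2OX7, ATGA2OX1 and ATGA2OX3 were silent. Among the inactivating enzymes, GA2OX4 and GA2OX2 overlapped, at 23.6 and 21.2 TPM and at 19.3 and 21.5 TPM. Of the receptors, GID1B held 80.7%, at 179 and 171 TPM, and of the DELLA repressors RGL3 led at 79.3 and 67.2 TPM. In ethylene synthesis, ACS10 at 22.7 and 25.9 TPM and ACS8 at 14.2 and 14.6 TPM led the ACS genes, of which ACS10 is of a group known as aminotransferases, and ACS1, ACS4, ACS5 and ACS9 were silent. ERS1 led the receptors at 84.5 and 75.8 TPM, although ETR2 led with no length, and EIN3 led the factors that act on ethylene targets at 197.5 and 191.2 TPM.

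In abscisic acid synthesis no NCED gene reached 1 TPM, and NCED6 was silent. The highest, NCED2, was at 0.514 and 0.649 TPM and overlapped the next. Receptors of abscisic acid were higher, with PYL2 at 139 and 140.3 TPM and PYL4 at 99.6 and 77.3 TPM, and PYL10, PYL12 and PYL13 were silent. In jasmonate synthesis, LOX1, a lipoxygenase outside the jasmonate branch, held 83.5% of its family at 102 and 95.3 TPM, whereas LOX2, of the jasmonate branch, was silent. LOX2 was the only silent one of 6 LOX genes, of which 5 were detected and 3 reached 1 TPM. JAZ1 led the jasmonate repressors at 70.1 and 74.9 TPM, followed by JAZ12 at 39.7 and 42.7 TPM, and JAZ8 was silent.

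Wall families had the largest share of silent members after the root meristem families, with a few members at high level. Of the cellulose synthase subunits, the primary wall set led, with CESA1 at 124 and 122 TPM, CEV1 (CESA3) at 88.0 and 89.1 TPM and CESA6 at 42.6 and 44.6 TPM. These 3 held 90.7% of the family. The secondary wall subunits were low, with IRX3 (CESA7) at 3.47 and 3.01 TPM, CESA4 at 1.785 and 1.775 TPM and IRX1 (CESA8) at 0.0699 and 0.0290 TPM, and CESA10 was silent.

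Expansins loosen the wall without cutting it. EXPA4 at 676 and 694 TPM and EXPA1 at 564 and 515 TPM held 72% of the TPM of 24 EXPA genes, and 14 were silent, among them the root hair genes EXPA7 and EXPA18. EXPB3 held 97.5% of the EXPB genes at 21.7 and 17.9 TPM, and EXPB1, EXPB4, EXPB5 and EXPB6 were silent. EXLA1 led the expansin-like genes at 50.3 and 48.7 TPM, but PNP-A led with coding length. Of the 33 XTH genes, whose enzymes cut and rejoin xyloglucan, XTH4 led at 183 and 205 TPM. XTH24 at 143 and 120.5 TPM and XTH9 at 120.1 and 125 TPM overlapped, and 12 were silent.

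AGP31 held 68.6% of the TPM of 30 arabinogalactan protein genes (46.1% with coding length), ahead of AGP9 at 199 and 208 TPM. FLA8 at 93.3 and 97.1 TPM and FLA1 at 54.1 and 54.9 TPM led the fasciclin-like proteins, and FLA11, known from secondary walls, was silent with 6 others. EXT3 led the extensins at 284 and 214 TPM, with 22.4% of its 31-base words repeated and 29.2% of its exon bases in another gene. Of the pectin methylesterases, PME3 at 102 and 95.1 TPM and PME1 at 77.89 and 78.85 TPM led. PME7, PME38, ATPMEPCRC and AT4G02300 were silent, as were the extensin genes EXT6, EXT10, EXT12 and EXT13. LAC8 held 92.6% of 17 laccase genes at 123.2 and 124.8 TPM, while the lignin laccases LAC4 (IRX12) and LAC17 were at 0.262 and 0.260 TPM and at 1.76 and 1.28 TPM. LAC10, LAC12 and LAC14 were silent.

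**Figure D4:**
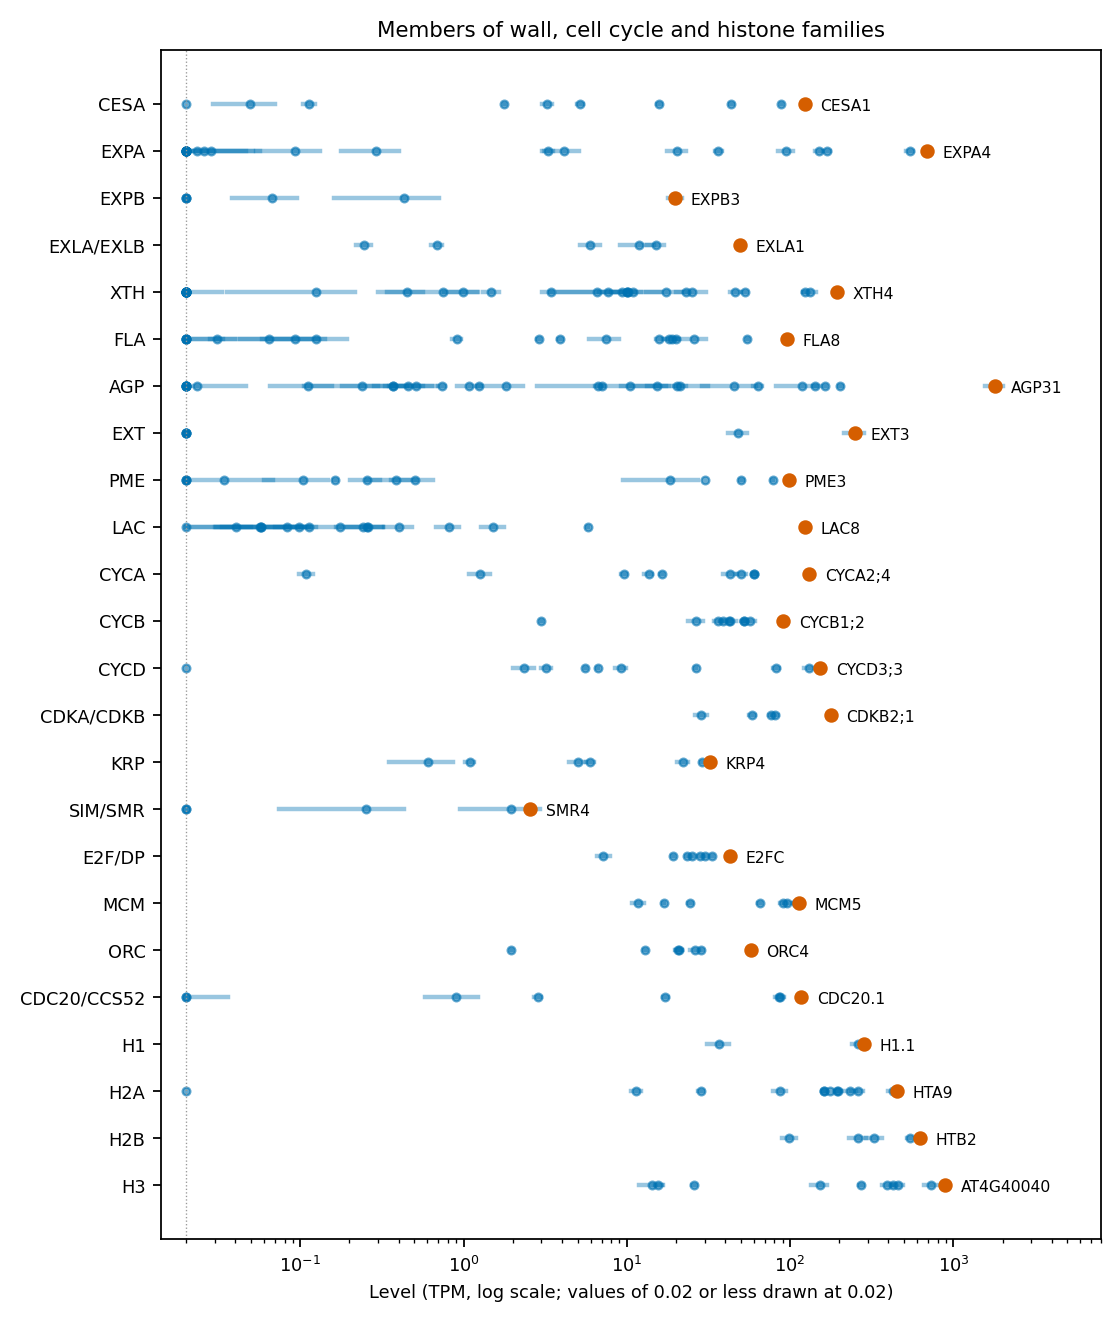
TPM (log axis) of every member of the wall, cell cycle and histone families, with points at the mean of the 2 libraries, bars from the lower to the higher library and the leading member in orange. In the wall families many members lie at the left edge, drawn at 0.02 TPM, whereas nearly all cyclin, MCM, ORC and histone members lie above 1 TPM.

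Nearly all cell cycle genes were detected. Of 79 members, 72 were detected and 6 were silent, with a median of 26.3 TPM. The 3 CYCD3 genes, cytokinin-responsive cyclins of the step into the cycle, held 87.2% of the CYCD family, with CYCD3;3 at 159 and 147 TPM, CYCD3;1 at 138 and 122 TPM and CYCD3;2 at 85.45 and 78.33 TPM. With coding length, CYCD3;1 led. CYCD7;1, known from guard cell precursors, was silent. Of the A-type cyclins, which act in S phase and mitosis, CYCA2;4 led at 135 and 126 TPM, ahead of CYCA2;3 and CYCA3;2, which overlapped, and CYCA3;3 was silent.

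All 10 B-type cyclins of mitosis were detected. CYC1BAT (CYCB1;2) led at 87.66 and 93.85 TPM, with 20.6% of its 31-base words repeated, and CYCB1;1 was at 52.5 and 60.8 TPM. Of the kinases, CDKB2;1, whose level peaks at mitosis, stood at 171.5 and 184.7 TPM, above CDC2 (CDKA;1) at 83.9 and 77.2 TPM, which overlapped CDKB1;1. CDC20.1 at 113 and 121 TPM and CDC20.2 at 81.0 and 91.8 TPM, activators of the anaphase-promoting complex, share much of their sequence, with 37.6% and 41.4% of words repeated, and their order is uncertain. FZR3 was at 83.9 and 87.8 TPM, and CDC20.3 and CDC20.5, of whose words over 40% are also repeated, were silent.

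Inhibitors were lower. AT2G32710 (ICK7) led the KRP genes at 33.1 and 31.8 TPM, followed by ICK6 at 29.1 and 28.5 TPM and ICK3 at 23.8 and 20.3 TPM. In the SIAMESE group, AT5G02220 (SMR4) at 2.46 and 2.63 TPM overlapped AT3G27630 (SMR7) at 0.952 and 2.94 TPM, and LGO and AT1G07500 were silent. All 9 MCM and 7 ORC genes, which license and start replication, were detected. MCM5 at 117 and 108 TPM, PRL (MCM7) at 109.8 and 109.9 TPM and MCM2 at 114 and 104 TPM overlapped, and MCM4 and MCM3 followed. ORC4 led the origin complex at 57.3 and 57.1 TPM, above ORC1B at 28.1 and 29.1 TPM. E2F/DP factors lay between 6.54 and 43.3 TPM, led by ATE2F2.

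Histone families had a median of 232 TPM. The H3 gene AT4G40040 led at 886 and 894 TPM, ahead of AT5G10980 at 660.2 and 789 TPM. HTB2 led the H2B genes at 589.9 and 659 TPM, and HTA9 at 461 and 441 TPM and HTA6 at 397 and 451 TPM overlapped at the head of the H2A genes, of which HTA4 was silent. Among H1 genes, AT1G06760 at 268 and 302 TPM overlapped AT2G30620 at 240.3 and 282 TPM. The order of the first ranks in H1 and H2B changed with coding length.

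The mitosis-specific activator (MSA) core AACGG, which MYB3R factors bind in promoters of mitotic genes, was searched in the same windows. It was found in 20.6% of all windows, 10 of 20 A-type and B-type cyclin windows, 48.4% of 31 histone windows and 31.6% of 79 cell cycle windows. The share was 23.5% among the 200 most abundant genes, 22.3% among detected genes and 16.6% among genes with no read. Mean GC content was 35.1% over the histone windows and 30.9% over the A-type and B-type cyclin windows, beside 31.5% over all windows. The window of CYC1BAT, the leading B-type cyclin, lies at chr5:1861704-1861953 on the reverse strand of TAIR10.1. It was picked as the window of the highest B-type cyclin that holds a core and touches no exon. It holds 4 cores, in capitals on either strand. The window of the H2B gene HTB2, picked in the same way, holds 1 core and is not printed.
CYC1BAT: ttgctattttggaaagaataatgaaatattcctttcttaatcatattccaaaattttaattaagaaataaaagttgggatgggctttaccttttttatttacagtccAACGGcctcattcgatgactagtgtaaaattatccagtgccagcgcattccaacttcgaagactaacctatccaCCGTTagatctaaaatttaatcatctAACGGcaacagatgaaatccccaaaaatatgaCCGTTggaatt
The cores of CYC1BAT lie between 143 and 11 bases before the annotated start. No comparison with random sequence was made.

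The libraries were then set against each other to show which levels can be read closely. They correlated at r = 0.995 on log2(CPM + 1) across genes, which are not independent replicates. Their counts differed by more than sampling noise, with a chi-square of 19.2 per degree of freedom over 19264 genes, so they were not 1 library deposited again. Of 12653 genes with a mean of at least 10 CPM, 97.6% lay within 1.5-fold. At least 2-fold higher in replicate 2 were 118 genes (0.933%), and 19 (0.15%) were at least 2-fold higher in replicate 1. With 1 library on each side there is no test of these differences.

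Of 278 family members above 10 CPM, 3 differed by at least 2-fold, a share like the 1.08% of all genes that did so in either direction. The log2 ratio of replicate 2 over replicate 1 was -1.19 for PBS3. AGP2 was at 28.8 and 61.8 TPM (log2 ratio 1.11), and the pectin methylesterase gene ATPMEPCRB was at 9.44 and 27.1 TPM (log2 ratio 1.52). Median log2 ratios were 0.01 for cell cycle members and 0.18 for histone members, beside -0.01 over all genes. Of the 278 members above 10 CPM, none in the auxin, cytokinin, meristem, cell cycle or histone families was at least 2-fold higher in replicate 2. Below that level BRN1, LBD29, ARR7 and AT3G27630 were among those that were.

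The genes that did differ included stress-related ones. The 10 largest differences were all higher in replicate 2. They were AT5G60530, which is annotated as related to late embryogenesis abundant proteins (1.38 and 44.1 TPM), the small heat shock genes HSP17.6II (2.19 and 64.9 TPM), HSP17.6A (6.17 and 127 TPM) and AT1G53540 (3.38 and 60.4 TPM), MLP-300B (3.06 and 85.7 TPM), ABCG31 (0.917 and 15.3 TPM), AT5G05600 (0.806 and 13.99 TPM), ASN1 (2.71 and 39.0 TPM), PLA2A (2.60 and 37.6 TPM) and CDEF1. CDEF1, which encodes a cutin-degrading enzyme, was the most abundant of them, at 37.8 and 757 TPM, a log2 ratio of 4.33 (replicate 2 over replicate 1). Of 41 genes annotated as heat shock products above 10 CPM, 9 were at least 2-fold higher in replicate 2 and 0 in replicate 1, while the median log2 ratio over the 41 was 0.08. This list was chosen after the differences were seen. Among the 19 genes higher in replicate 1 were the defence regulators PAD4 (29.02 and 12.64 TPM), WRKY70 (53.9 and 25.5 TPM) and WRKY51 (36.28 and 17.05 TPM), also named after their values were seen.

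**Figure D5:**
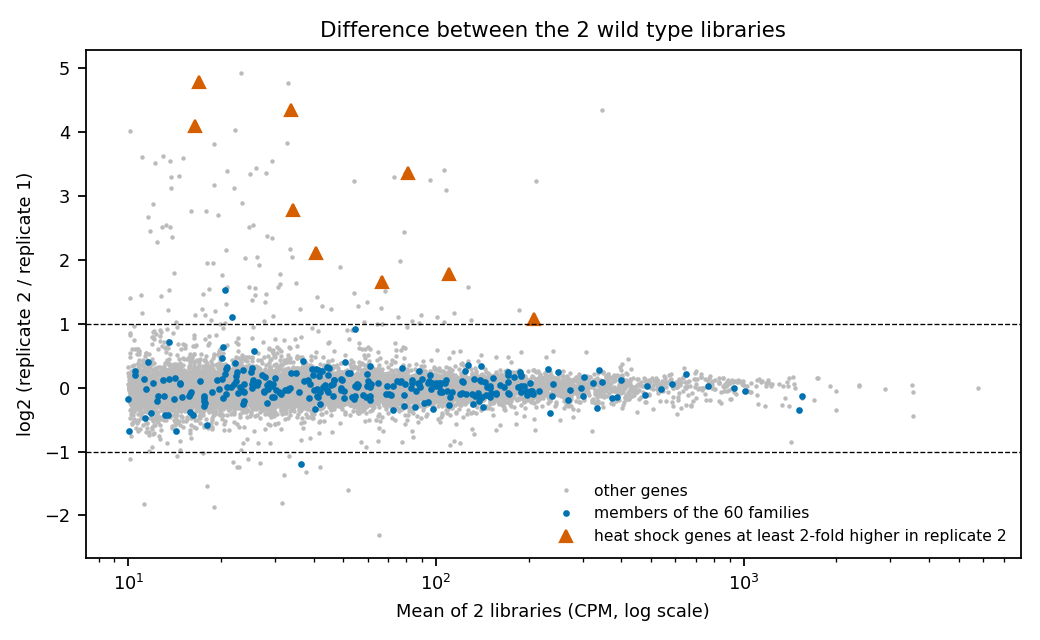
Log2 ratio of CPM in replicate 2 over replicate 1 against mean CPM (log axis) for the 12653 genes with a mean of at least 10 CPM; blue points are members of the 60 families and orange triangles are the 9 heat shock genes at least 2-fold higher in replicate 2. Dashed lines mark 2-fold, and 3 of the 278 family members lie outside them.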

How the data were processed

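RNA was sequenced from wild type callus, and the deposited file gives a read count for each of 32833 genes, as whole numbers. STAR 2.7.2b, Trim Galore 0.5.0, DESeq2 and TAIR10 are named, with no role, in the submitters' processing notes. Not given in the sources used here are the counting tool, its annotation and its strand setting. Overlapping genes could therefore share reads. No deposited count is below 10, and 35.3% and 34.1% of genes hold exactly 10, so 10 was subtracted from every value before use. That the authors had added it is an inference from the values.

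CPM was taken over all genes, and TPM over the 32548 nuclear genes from exon lengths of the TAIR10.1 RefSeq annotation. No depth beyond the deposited counts was used. Product classes were taken by words in the annotated product. Repeats were counted as 31-base words of a gene's exons that occur again in the genome on either strand. Scripts ran in Python 3.11.15 with pandas 2.3.3, numpy 2.4.6 and matplotlib 3.10.9 and were tested on simulated data.

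The genes named are the 30 with the highest mean TPM, the 2 highest of each family with any other above 10% of its TPM and silent ones (in large families as a count), the highest of each marker list, the 10 largest differences between libraries, and WOX5 and WOX7. Other names illustrate a list, and some genes that the rule names are not reported here. The members and lists were chosen with earlier results of these data known. Product classes, repeat checks and the printed windows were chosen after seeing the values.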

Additional observations from a re-analysis of the deposited data

How the results depend on the processing

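With each library alone, 19381 to 19732 genes were detected, 11191 to 11589 had no read, 17224 to 17435 reached 1 TPM, and the 30 most abundant genes held 7.23% to 7.55% of TPM. With the values as deposited, 32833 genes counted as detected and 0 as without a read, because every deposited value is at least 10. The share of the 30 most abundant genes was 8.52% with coding length and 5.89% with no length (CPM), with or without organelle genes in the total, and 19 and 18 of the 30 genes were shared with the list by exon length. Genes at least 2-fold apart between the libraries numbered 137 of 12653, but 566 of 16872 with a mean of at least 1 CPM and 54 of 7602 with at least 30 CPM. Site II was found in 63.0% of the 100 and 47.2% of the 500 most abundant genes, and the telo box in 15.2% of the 500. The leading member changed in 6 of 60 families without replicate 1, in 1 without replicate 2, in 7 with coding length, in 7 with no length and in 0 with the values as deposited. Shares also moved where the leader stayed. AGP31 went from 68.6% to 46.1% with coding length, and AT2G32710 from 33.8% to 51.7% of the KRP genes with no length. No paired analysis was possible because only 1 group of 2 libraries was described and no test was made. The limit of 3 reads means that a silent gene was not detectable at this depth, and gene lengths come from an annotation that may differ from the authors' own.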
